A study of Mus musculus with 6 samples.

Results

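Mitochondrial ribosomal protein genes encode the nuclear part of the mitochondrial ribosome (mitoribosome). They were taken as all genes whose symbol is *Mrpl* or *Mrps* followed by a number and at most one letter, without the pseudogenes marked -ps. This gave 78 of the 55364 genes listed, 49 *Mrpl* genes of the large subunit series and 29 *Mrps* genes of the small subunit series, and the choice used no measured value. RNA-seq had been performed on mouse morulae, embryos of BDF1 females and BDF1 males, which were fertilized in vitro and cultured in KSOM medium. Zygotes received either a control siRNA (control KD) or an siRNA against *Yy1* (*Yy1* KD), the gene of a zinc finger transcription factor that binds promoters and enhancers. Each group had 3 libraries, each of total RNA from 10 pooled morulae frozen at 64 h after insemination. The methods describe a single siRNA product against *Yy1*, so loss of YY1 and any other effect of that siRNA cannot be told apart.

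The mitoribosome translates the few proteins that are still encoded by the mitochondrial genome, all of them membrane subunits of the respiratory chain and ATP synthase. Its rRNAs come from mitochondrial DNA, whereas all its proteins come from nuclear genes, are made in the cytosol and are imported. Some of these proteins descend from the bacterial ribosome, and others were added in mitochondria and cover the outside of both subunits. Early mouse embryos inherit their mitochondria from the oocyte.

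Levels were deposited as TPM, a share of all transcripts of a library scaled to a fixed total, which is adjusted for gene length. Per library, 11793508 to 24417791 read pairs were assigned to the 54312 genes with a known exon length, as recovered from TPM and exon length. *Yy1* itself had 96.0, 100.2 and 89.8 TPM in control KD and 8.73, 8.90 and 8.32 TPM in *Yy1* KD, a log2 fold change of -3.32 (SE 0.09, adjusted p = 6.71e-05, limma). The exact two-sided permutation test gave p = 0.1, the smallest that 3 against 3 libraries allow. All 12 morula markers were at 1 TPM or more in every library, and their summed level was 6604 to 7122 TPM in control KD and 6394 to 6873 TPM in *Yy1* KD. Most of that sum was *Dppa3*, and without it the other 11 markers summed to 2212 to 2522 TPM and 1681 to 1997 TPM, without overlap. Of the 12, *Zfp42* (log2 fold change -3.17, adjusted p = 0.000118, limma) and *Tfap2c* (-0.54, adjusted p = 0.0174) were called lower and none higher, and their part in the results on ribosomal protein genes was not tested. None of 11 cumulus cell markers reached 1 TPM in all libraries (sums 1.48 to 3.39 and 1.75 to 3.69 TPM), with *Cyp19a1*, *Fshr*, *Has2*, *Ptx3* and *Tnfaip6* at 0 throughout. None of 8 sperm markers did either (sums 0.322 to 0.599 and 0 to 2.26 TPM), whereas 8 of 8 oocyte markers did (sums 52.6 to 74.1 and 56.1 to 73.2 TPM).

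All 78 mitochondrial ribosomal protein genes are protein coding, and they lie on 17 chromosomes. Every one of them passed the filter for testing, which asked for 1 TPM or more in 3 or more of the 6 libraries. In control KD their median level stood at the percentile 78.3 of the 17353 genes tested, 62 genes had 20 TPM or more and 7 were below 10 TPM. The highest mean belonged to *Mrpl22*, whose bacterial counterpart lines the exit tunnel, with 328, 392 and 316 TPM in control KD and 319, 288 and 299 TPM in *Yy1* KD. *Mrpl12*, the counterpart of the bacterial stalk protein L7/L12, had 212, 239 and 211 TPM and 233, 226 and 240 TPM. *Mrpl18* had 211, 178 and 198 TPM and 273, 229 and 205 TPM. *Mrps24* had 158, 190 and 192 TPM and 158, 172 and 181 TPM. Both groups overlapped in each of these abundant genes, none of which was called. Next in level came *Mrpl45* in control KD and *Mrps21* over all 6 libraries. They were called lower and higher, respectively, and their groups did not overlap. *Mrpl33* (3.93 ± 0.33 and 3.68 ± 0.70 TPM, SD, n = 3), *Mrpl13* (6.73 ± 0.63 and 7.08 ± 0.20 TPM) and *Mrps35* (8.08 ± 0.37 and 7.77 ± 0.71 TPM) were the lowest, and their groups overlapped. At these levels even the gene with the fewest reads had 47 read pairs in a library, and the median gene had 361 to 887 pairs depending on the library.

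**Figure D1:**
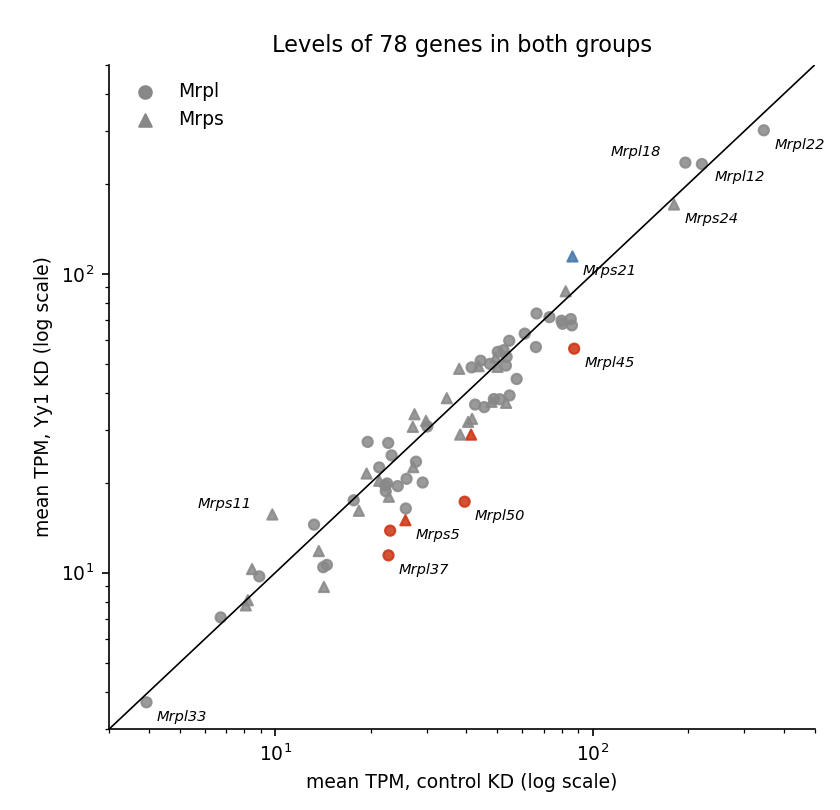
Mean TPM of the 78 genes in control KD (horizontal, log scale) and in Yy1 KD (vertical, log scale), with circles for Mrpl and triangles for Mrps genes, red for genes called lower and blue for the gene called higher. The line marks equal levels. Most genes stayed close to it from Mrpl33 at 3.93 TPM to Mrpl22 at 345 TPM, and Mrpl50 and Mrpl37 lay farthest below.

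Whether mitochondrial ribosomal protein genes respond to *Yy1* KD was examined first over all of them. Fold changes are given on the log2(TPM + 1) scale, and a gene was called at a limma p under 0.05 after Benjamini-Hochberg adjustment over all 17353 genes. Of the 78 genes, 6 were called lower in *Yy1* KD (7.69%), against 4.2% of all genes tested, and 1 was called higher (1.28%), against 1.92% of all genes. These shares were also taken on each side of a level of 20 TPM. Among genes with a mean of 20 TPM or more, 4 of 62 mitochondrial ribosomal protein genes were called lower (6.45%) and 392 of all 5720 genes (6.85%). Below 20 TPM, 2 of 16 mitochondrial ribosomal protein genes were called lower (12.5%) and 336 of all 11633 genes (2.89%). These 2, *Mrpl37* and *Mrpl38*, had means of 17.1 and 18.4 TPM, just under the cut. Below 20 TPM the median SE was 0.15 for the mitochondrial ribosomal protein genes and 0.25 for all genes, so precision was not matched there. For 28 of the 78 genes (35.9%) all 3 *Yy1* KD values lay below all 3 control KD values, against 17.2% of all genes. For 8 genes (10.3%) they lay above, against 12.9% of all genes, and for the other 42 genes the groups overlapped. At 20 TPM or more, 38.7% of the mitochondrial ribosomal protein genes and 22.0% of all genes had all *Yy1* KD values below control KD, and below 20 TPM the shares were 25.0% and 14.8%. The median log2 fold change was -0.09, with quartiles of -0.34 and 0.10, beside -0.02 for all genes tested, and 67 of the 78 genes had a fold change under 0.5 in size. At an unadjusted p under 0.05 there were 26 lower and 6 higher genes, beside 2500 lower and 1623 higher of all 17353 genes. An adjusted p between 0.05 and 0.1 was reached by 13 genes (11 lower and 2 higher), a range not counted over all genes.

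Over the 49 *Mrpl* genes the median log2 fold change was -0.17, or -0.088 with quantile normalization. Of them, 4 were called lower by limma (8.16%, beside 4.2% of all genes). None was called higher by limma, beside 1.92% of all genes (3 higher at an unadjusted p under 0.05, and 1 by limma-voom on read pairs). The 29 *Mrps* genes had a median of -0.05, which turned to 0.02 with quantile normalization, with 2 called lower (6.90%) and 1 higher (3.45%). The difference between both series was not tested. Summed over each library, *Mrpl* transcripts amounted to 2613, 2708 and 2554 TPM in control KD and to 2539, 2370 and 2373 TPM in *Yy1* KD, without overlap. The lowest control KD and the highest *Yy1* KD sum were close, and scaling factors by median ratio ranged from 0.97 to 1.03 over the libraries. Whether the gap holds after such scaling was not tested. *Mrps* transcripts amounted to 1096, 1136 and 1094 TPM and to 1139, 1060 and 1036 TPM, with overlap. The ratio of both sums was 2.33 to 2.38 in control KD and 2.23 to 2.29 in *Yy1* KD. In pools of whole embryos, fewer cells that express a gene and less RNA per cell cannot be told apart, and TPM are shares of a library.

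**Figure D2:**
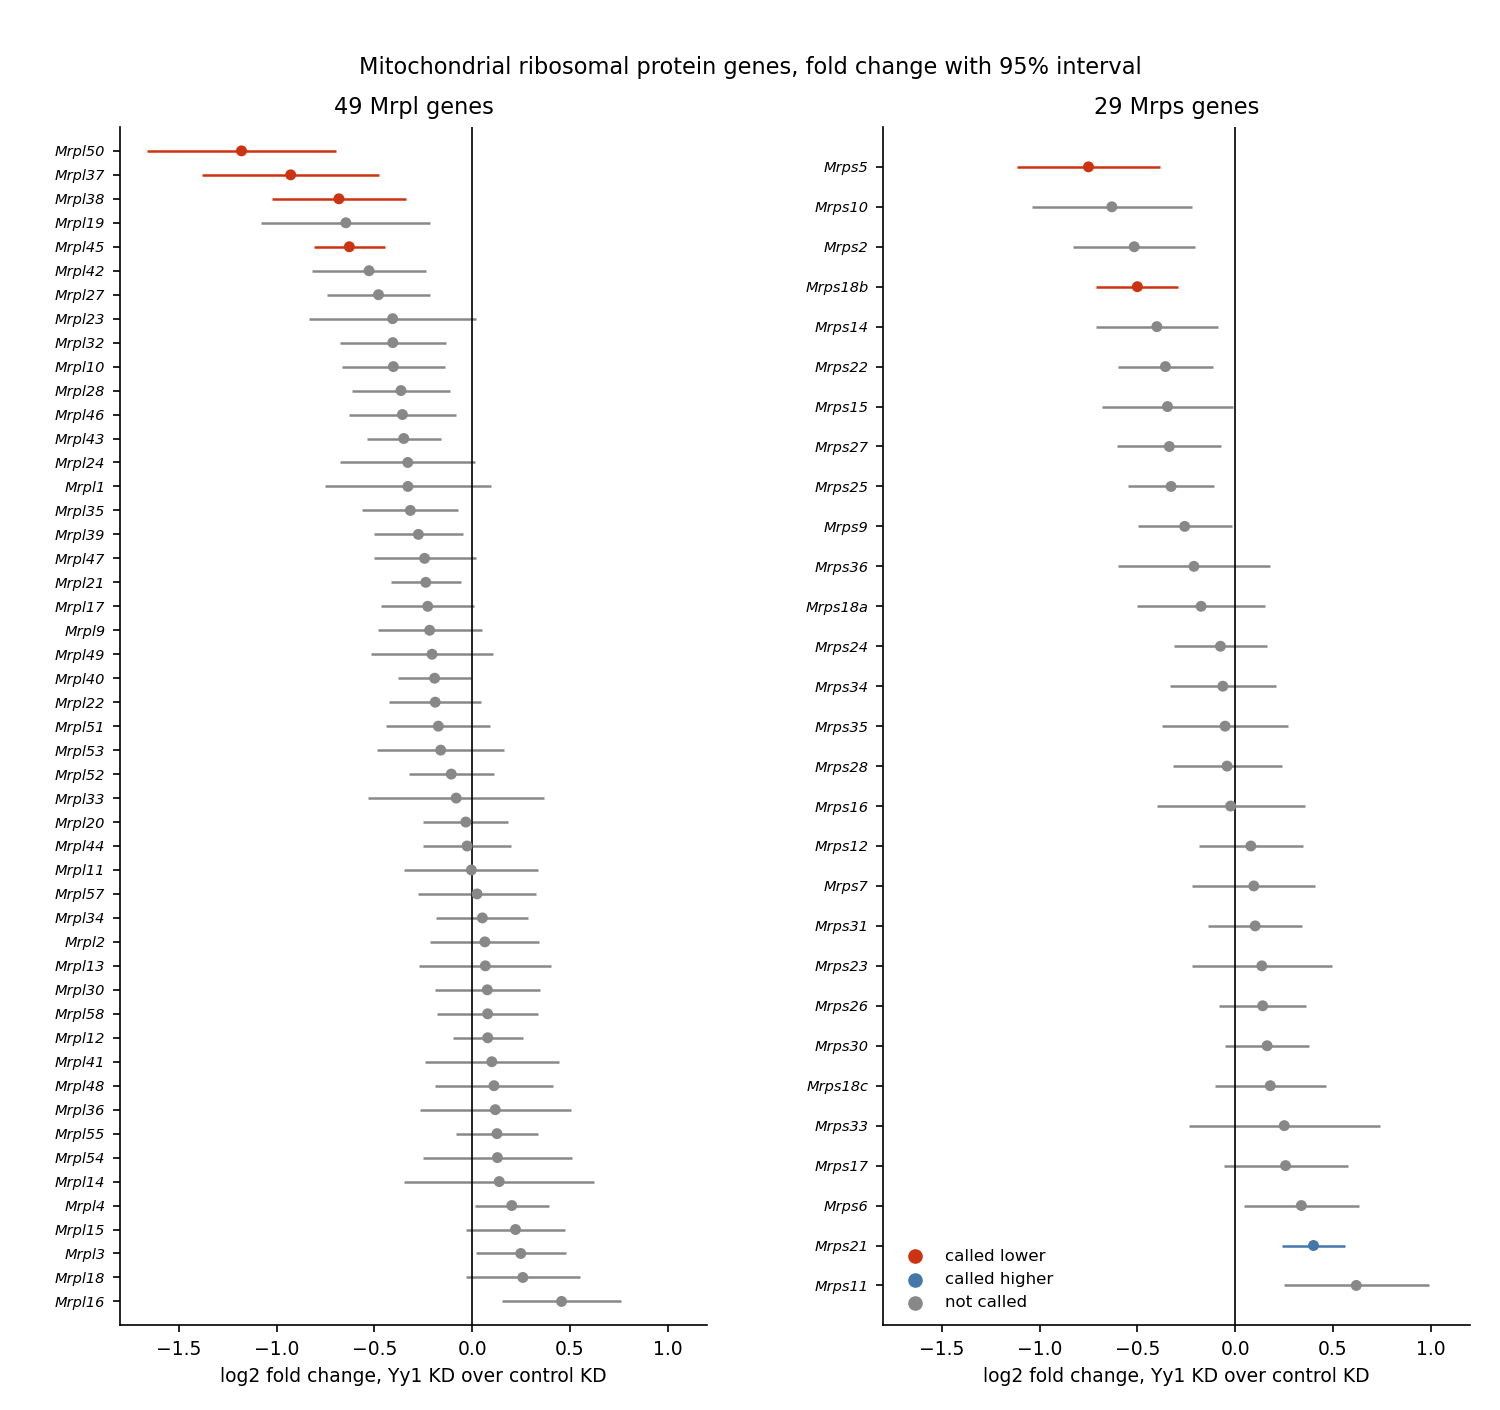
Log2 fold change of each of the 49 Mrpl genes (left) and 29 Mrps genes (right), Yy1 KD over control KD, on the log2(TPM + 1) scale, with the 95% interval of limma (3 libraries per group). Red points are the 6 genes called lower, blue is Mrps21, the gene called higher, and most of the other intervals include 0.

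Within the large subunit, all 4 called genes encode proteins added in mitochondria, and this difference from the other large subunit genes was not tested. *Mrpl50* changed most. It lies on chromosome 4 (49512596 to 49521093, minus strand, GRCm38) and had 42.3, 35.6 and 40.6 TPM in control KD and 21.8, 17.8 and 12.2 TPM in *Yy1* KD. The highest *Yy1* KD value was well under the lowest control value, and the log2 fold change was -1.18 (SE 0.20, adjusted p = 0.0270, limma). *Mrpl37*, also on chromosome 4 (107055874 to 107066868, minus strand), had 17.8, 26.8 and 23.6 TPM in control KD and 13.8, 10.8 and 9.73 TPM in *Yy1* KD, or 50.3% of the control mean. Its groups did not overlap either, although the control values spread widely, and its log2 fold change was -0.93 (SE 0.19, adjusted p = 0.0408).

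*Mrpl38* on chromosome 11 (116131817 to 116138868, minus strand) had 19.4, 27.7 and 22.0 TPM in control KD and almost equal values of 13.8, 13.5 and 14.2 TPM in *Yy1* KD. This corresponded to a log2 fold change of -0.68 (SE 0.14, adjusted p = 0.0447). *Mrpl45*, whose protein sits near the exit of the peptide tunnel and helps to hold the ribosome at the inner membrane, is also on chromosome 11 (97315716 to 97329920, plus strand). It had 84.5, 92.7 and 84.9 TPM in control KD and 58.4, 55.8 and 54.3 TPM in *Yy1* KD. Its log2 fold change of -0.63 was smaller than that of *Mrpl50*, but its libraries were tighter (SE 0.08) and its adjusted p of 0.0126 was the lowest of the 78 genes.

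In the small subunit, *Mrps5* and *Mrps18b* fell and *Mrps21* rose. *Mrps5*, the counterpart of bacterial ribosomal protein S5, lies on chromosome 2 (127587222 to 127606829, plus strand) and had 25.9, 23.0 and 28.2 TPM in control KD against 18.1, 14.1 and 12.7 TPM in *Yy1* KD. The groups were apart, with a log2 fold change of -0.75 (SE 0.15, adjusted p = 0.0412). *Mrps21*, the counterpart of bacterial S21, lies on chromosome 3 (95862634 to 95871519, minus strand) and had 85.4, 87.0 and 86.5 TPM in control KD against 119.5, 113.9 and 109.3 TPM in *Yy1* KD. The control values were nearly equal and all *Yy1* KD values lay above them, with a log2 fold change of 0.40 (SE 0.07, adjusted p = 0.0267).

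*Mrps18b* belongs to 3 paralogs that all descend from bacterial S18, of which *Mrps18a* encodes a protein of the large subunit. *Mrps18b* on chromosome 17 (35910379 to 35916389, minus strand) had 39.9, 43.8 and 40.4 TPM in control KD and 29.8, 27.2 and 30.0 TPM in *Yy1* KD, a log2 fold change of -0.50 (SE 0.09, adjusted p = 0.0297). It shares exonic sequence with *Gm16279*, and strand was not used in counting, so its reads and those of *Gm16279* cannot be told apart there. *Mrps18a* had 18.3 ± 2.28 TPM and 16.1 ± 1.67 TPM (SD, n = 3), a log2 fold change of -0.17 (adjusted p = 0.496). *Mrps18c* had 27.1 ± 3.38 TPM and 30.7 ± 2.39 TPM, a log2 fold change of 0.18 (adjusted p = 0.421). The groups overlapped for both of these paralogs, and differences between the paralogs were not tested.

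**Figure D3:**
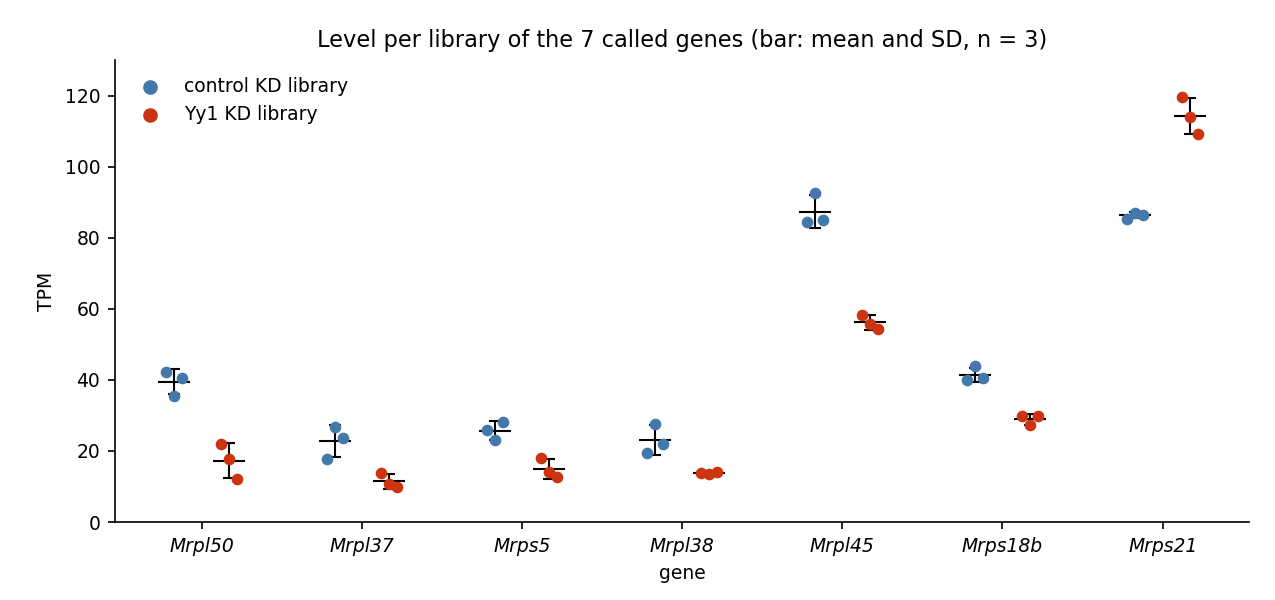
TPM of the 7 called genes in each library, blue for the 3 control KD and red for the 3 Yy1 KD libraries, with bars for the mean and the SD. The groups do not overlap for any of the genes, and Mrps21 is the gene that is higher in Yy1 KD, at 109.3 to 119.5 TPM against 85.4 to 87.0 TPM.

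Other large differences did not pass the test. *Mrps10* and *Mrps2*, named after their values were seen, had log2 fold changes of -0.63 and -0.52 (adjusted p = 0.0822 and 0.0693, limma). Both were called lower by limma-voom. *Mrpl19* had 25.0, 24.1 and 28.2 TPM in control KD and 20.7, 12.6 and 15.9 TPM in *Yy1* KD, a log2 fold change of -0.65 (adjusted p = 0.0899). *Mrpl16*, the counterpart of bacterial L16, had 20.4, 18.9 and 19.3 TPM and 32.1, 23.9 and 26.2 TPM, a log2 fold change of 0.46 (adjusted p = 0.0899). *Mrps6* (38.0 ± 5.29 and 48.1 ± 4.39 TPM) and *Mrpl18* had log2 fold changes of 0.34 and 0.26 (adjusted p = 0.159 and 0.259). Except for *Mrpl18*, the groups of these genes did not overlap. Just inside the threshold lay *Mrpl38* and just outside it *Mrpl43*, named after its values were seen, with 48.8 ± 1.32 and 38.1 ± 1.74 TPM, a log2 fold change of -0.35 and an adjusted p of 0.0514.

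The largest positive fold change belonged to *Mrps11*, the counterpart of bacterial S11, with 10.3, 8.72 and 10.3 TPM in control KD and 16.1, 17.9 and 12.9 TPM in *Yy1* KD. The groups did not overlap, but the log2 fold change of 0.62 (SE 0.16) had an adjusted p of 0.0678. *Mrps11* starts back to back with *Mrpl46* on chromosome 7, and both annotations share exonic sequence. *Mrpl46*, named after its values were seen, had 86.1, 91.4 and 80.3 TPM and 75.0, 69.1 and 57.5 TPM, a log2 fold change of -0.36 (adjusted p = 0.120). Their values thus differed in opposite directions, at levels in control KD of 9.79 TPM for *Mrps11* and 85.9 TPM for *Mrpl46*, and read pairs on the shared sequence had been divided between both genes. In all, 33 of the 78 genes share exonic sequence with another annotated gene. Of these, *Mrps18b* was called lower (3.03%). Among the 45 genes without such an overlap, 5 were called lower (11.1%) and 1 higher (2.22%), beside 4.2% and 1.92% of all genes. All *Yy1* KD values lay below control KD for 33.3% of the genes with shared sequence and 37.8% of those without. The difference between both sets was not tested.

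The genes were also arranged by the unified ribosome nomenclature, which names a protein after its bacterial relative or marks it as specific to mitochondria. The counts below stand beside 4.2% of all genes called lower and 1.92% called higher. Among all genes with a mean of 20 TPM or more, these shares were 6.85% and 3.55%. At an unadjusted p under 0.05, 2500 of all 17353 genes were lower and 1623 higher. By limma-voom, 1296 of all 16931 genes were called lower and 801 higher. Of 29 large subunit genes with a bacterial counterpart, none was called by limma, with 7 lower and 3 higher at an unadjusted p under 0.05, 1 lower and 1 higher by limma-voom, and a median log2 fold change of -0.08. One of them, *Mrpl27* (adjusted p = 0.0532), was called lower by limma with a mean TPM of at least 5, with genes of at least 200 nt, with the GC and length correction and without *Yy1* KD 3. Of 22 large subunit genes specific to mitochondria, which include *Mrps18a* and *Mrps30*, 4 were called lower (*Mrpl37*, *Mrpl38*, *Mrpl45* and *Mrpl50*), or 18.2%, with a median of -0.17. All *Yy1* KD values lay below control KD for 34.5% of the 29 genes and 40.9% of the 22, beside 17.2% of all genes. In the small subunit, 1 lower and 1 higher gene were called among 16 with a bacterial counterpart (*Mrps5* and *Mrps21*, median -0.03). Among 11 genes counted as specific, 1 was called lower (*Mrps18b*, median -0.06). *Mrps18a* and *Mrps18b* are counted as specific by name, although they descend from bacterial S18. *Mrps36* is included by its symbol, and its place in the mitoribosome was not examined. The differences between these classes were not tested, and medians this close to 0 can depend on the scaling, as that of all *Mrps* genes did. Across the 78 genes, the log2 fold change had a correlation of -0.20 with exon length, 0.09 with GC content and 0.10 with the mean log2 level. These values describe genes of the same 6 libraries, which are not independent.

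Because YY1 binds DNA near transcription starts, the promoters were searched for its consensus, GCCATNTT on one strand and AANATGGC on the other, with N for any base. Promoters were 250 bases before and 50 bases after the annotated RefSeq start on GRCm38.p6 and were given for 69 of the 78 genes. The consensus was found in 21 of them (30.4%), against 6.96% of all 27025 genes with such a promoter, 10.6% of 8776 protein-coding genes that were tested here, and 19.4% of 62 cytosolic ribosomal protein genes. Among the 50 transcribed bases alone, the shares were 23.2% of the 69 genes, 2.45% of all genes, 5.23% of tested protein-coding genes and 3.23% of cytosolic ribosomal protein genes. Altogether 24 matches were present, and their strands were divided by position. All 16 that read AANATGGC on the gene's strand lay 7 to 37 bases after the start, and all 8 that read GCCATNTT lay before it. AANATGGC contains ATG, and 11 of the matches held the annotated start codon of their gene.

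The windows below show this arrangement, each read 5′ to 3′ on the strand of its gene with the match in capitals. They were chosen to include the called gene with a match, the next genes by fold change, matches on a start codon (*Mrpl27*, *Mrpl35*, *Mrps27*, *Mrps18a*, *Mrps30*) and upstream matches in the opposite orientation (*Mrpl32*, *Mrps11*).
Mrpl37, chr4:107066825-107066848, minus strand: cacgggcaAAGATGGCggcgtcca
Mrpl42, chr10:95501907-95501930, minus strand: attgaagcAAGATGGCgagcgcgc
Mrpl27, chr11:94653791-94653814, plus strand: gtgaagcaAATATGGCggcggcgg
Mrpl35, chr6:71823746-71823769, minus strand: caggctgcAAGATGGCggcttcca
Mrps27, chr13:99344792-99344815, plus strand: tgcgctccAAGATGGCggctccca
Mrps18a, chr17:46111007-46111030, plus strand: tgcgttccAAGATGGCggccctca
Mrps30, chr13:118387222-118387245, minus strand: ggcgggcgAAAATGGCggcggcca
Mrpl32, chr13:14613264-14613287, minus strand: cgcgctctGCCATCTTtacccgga
Mrps11, chr7:78783016-78783039, plus strand: cgggcgccGCCATCTTtctgtctt

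*Mrpl37* was the 1 called gene with a match, among 6 of the 7 called genes that had a promoter. Its whole promoter window is given with the match in capitals, which begins 27 bases after the start and does not hold the annotated start codon.
Mrpl37, chr4:107066817-107067116, minus strand: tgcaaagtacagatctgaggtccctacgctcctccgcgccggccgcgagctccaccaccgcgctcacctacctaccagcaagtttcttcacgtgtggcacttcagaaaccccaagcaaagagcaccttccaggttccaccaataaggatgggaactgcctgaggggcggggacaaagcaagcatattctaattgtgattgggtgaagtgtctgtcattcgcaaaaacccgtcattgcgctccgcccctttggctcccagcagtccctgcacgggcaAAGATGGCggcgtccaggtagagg
*Mrpl50*, with the largest fold change, had no match in its window, which is shown for comparison.
Mrpl50, chr4:49521034-49521333, minus strand: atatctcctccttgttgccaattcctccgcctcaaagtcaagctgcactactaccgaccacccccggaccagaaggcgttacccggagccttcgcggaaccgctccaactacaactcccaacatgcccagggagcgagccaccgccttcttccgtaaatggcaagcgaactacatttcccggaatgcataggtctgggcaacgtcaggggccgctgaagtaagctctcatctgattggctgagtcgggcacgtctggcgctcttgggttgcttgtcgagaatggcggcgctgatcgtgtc

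Fold changes were compared between genes with and without the consensus as a description, with no test. The median log2 fold change was -0.17 for the 21 genes with a match and -0.13 for the 48 genes with a promoter and no match. After *Mrpl37* (-0.93), the lowest log2 fold changes among genes with a match were those of *Mrpl42* (-0.53, adjusted p = 0.0559), *Mrpl27* (-0.48, adjusted p = 0.0532) and *Mrpl32* (-0.41, adjusted p = 0.0894). *Mrps27*, *Mrpl24*, *Mrpl35*, *Mrpl47*, *Mrpl21*, *Mrpl49*, *Mrps18a*, *Mrpl51*, *Mrps24* and *Mrpl11* had log2 fold changes from -0.34 to 0.00. *Mrpl58*, *Mrps12*, *Mrps7*, *Mrpl36*, *Mrps30*, *Mrpl18* and *Mrps11* had values from 0.08 to 0.62. The match is a string of letters in a window, and YY1 binding was not measured in these libraries.

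**Figure D4:**
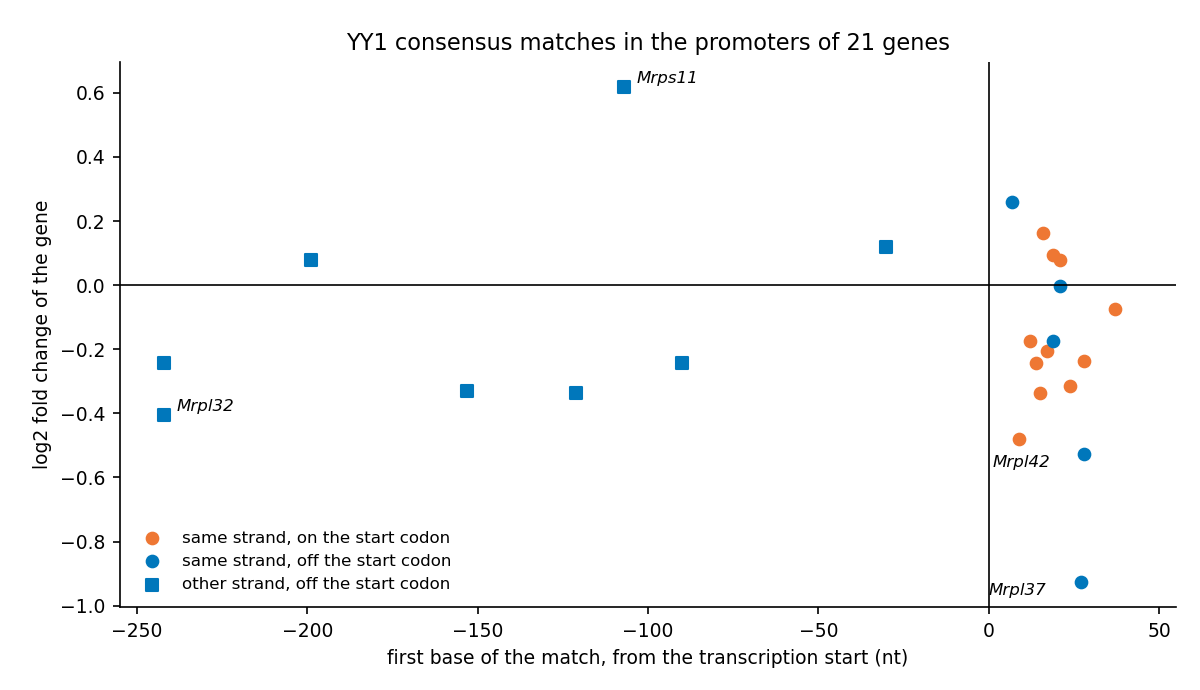
Position of the 24 YY1 consensus matches in the promoters of 21 genes (first base of the match, in nucleotides from the transcription start) against the log2 fold change of the gene. Circles read AANATGGC on the gene's strand and squares read GCCATNTT, with orange for matches on the annotated start codon. All circles lie 7 to 37 bases after the start, with Mrpl37 the lowest at -0.93.

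Many of these genes share a start region with another gene. For 33 of the 78, a protein-coding gene starts within 1000 bases on the other strand, which gave 31 partners of which 29 were tested. Of the 29 partners, 4 were called lower (13.8%) beside 4.2% of all genes, and none was called higher. Their median level in control KD was 26.0 TPM, and 6.85% of all genes with a mean of 20 TPM or more were called lower. The 4 called lower were *Ptcd2* beside *Mrps27*, *Ndufs6* beside *Mrpl36*, *Ndufb5* beside *Mrpl47* and *Wdfy1* beside *Mrpl44*, named after their values were seen. *Mrps27*, *Mrpl36* and *Mrpl47* have a consensus match before their start, and its part in the levels of either gene of a pair was not tested. *Ndufs6*, a subunit of respiratory complex I, had 50.5 and 30.4 TPM on average (log2 fold change -0.71, adjusted p = 0.0145), whereas its neighbour *Mrpl36* had 50.2 ± 7.51 and 54.8 ± 10.1 TPM (log2 fold change 0.12, adjusted p = 0.708). *Ptcd2*, a pentatricopeptide repeat gene, had 69.8 and 38.3 TPM (log2 fold change -0.85, adjusted p = 0.0135), beside 40.5 ± 2.72 and 31.9 ± 3.84 TPM for *Mrps27* (log2 fold change -0.34, adjusted p = 0.130). In no pair were both genes called. Of the called genes with a partner, only *Mrps5* and *Mrps18b* had one that was tested, so this cannot show whether paired genes change together. Among the called genes with such a partner, *Ppp1r10* beside *Mrps18b* had a log2 fold change of 0.41 (adjusted p = 0.0674), and the partners of *Mrpl50*, *Mrpl37* and *Mrps5* were at or below 1.26 TPM on average in both groups.

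The wider apparatus of mitochondrial translation was followed with 48 further genes, of which 2 were called lower (4.17%), beside 4.2% of all genes. Of 5 mitoribosome proteins with other symbols, *Chchd1*, which encodes the small subunit protein mS37, was called lower. It had 93.2, 97.5 and 86.5 TPM in control KD and 57.6, 58.4 and 63.3 TPM in *Yy1* KD, a log2 fold change of -0.62 (SE 0.08, adjusted p = 0.0130), without overlap of the groups. It shares exonic sequence with *6230400D17Rik*. Of 28 genes for assembly of the mitoribosome and modification of its rRNA, *Rpusd4* was called lower (3.57%). *Rpusd4*, a pseudouridine synthase that acts on mitochondrial rRNA, had 15.6, 11.0 and 12.7 TPM in control KD and 1.90, 2.20 and 1.75 TPM in *Yy1* KD. The *Yy1* KD mean was 14.9% of the control mean and the log2 fold change was -2.24 (SE 0.18, adjusted p = 0.00405), farther from 0 than that of any of the 78 ribosomal protein genes. *Eral1*, a GTPase that binds the rRNA of the small subunit and was named after its values were seen, had 20.4, 19.6 and 17.7 TPM in control KD and 8.88, 2.97 and 9.08 TPM in *Yy1* KD. Its groups did not overlap and its log2 fold change of -1.46 was also beyond that of any of the 78 genes, but the *Yy1* KD values spread widely (SE 0.36) and the adjusted p was 0.0646.

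None of the 48 genes was called higher by limma, beside 1.92% of all genes (2 at an unadjusted p under 0.05, none by limma-voom). Of 15 mitochondrial translation factors, none was called by limma in either direction, with 2 lower and 1 higher at an unadjusted p under 0.05 and 1 lower by limma-voom. For the elongation factor *Tufm* the levels were 158 ± 8.55 and 182 ± 14.5 TPM (log2 fold change 0.20, adjusted p = 0.213), and for *Gfm2*, a ribosome recycling factor, 13.8 ± 2.64 and 9.04 ± 0.63 TPM (log2 fold change -0.55, adjusted p = 0.104). Both were named after their values were seen. The median log2 fold change over the 48 genes was -0.01.

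Ribosomal proteins of the cytosol gave a comparison with the other ribosome of the cell. Of 84 cytosolic ribosomal protein genes tested, 13 were called higher by limma (15.5%, beside 1.92% of all genes) and none lower. Their median level in control KD was 538 TPM. Of all genes with a mean of 20 TPM or more, 3.55% were called higher. At an unadjusted p under 0.05, 49 of the 84 were higher and 0 lower, beside 1623 and 2500 of all 17353 genes. By limma-voom, 41 of the 84 were higher and 0 lower, beside 801 and 1296 of all 16931 genes. All *Yy1* KD values lay above control KD for 52 of the 84 genes (61.9%, beside 12.9% of all genes) and below it for 1 gene (1.19%, beside 17.2%). Their median log2 fold change was 0.26, beside -0.09 for the mitochondrial set. The summed TPM of cytosolic ribosomal protein genes was 17.9 to 18.6 times that of the mitochondrial genes in control KD libraries and 22.6 to 23.3 times in *Yy1* KD libraries, without overlap. The sum over the 78 mitochondrial genes was 3710, 3844 and 3648 TPM in control KD and 3678, 3430 and 3409 TPM in *Yy1* KD, which overlapped. The difference between the lists was not tested.

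The single calls depended on each of the libraries. Without control KD 1 or without control KD 3, none of the 78 genes was called by limma. Without control KD 2 or without *Yy1* KD 2, *Mrpl45* was the 1 gene called. Without *Yy1* KD 1, *Mrpl45*, *Mrpl50* and *Mrps5* were called, and without *Yy1* KD 3, *Mrpl45*, *Mrpl50* and *Mrpl27*. With fewer libraries the calls over all genes dropped too, to 53 lower and 22 higher without control KD 3, against 728 and 333 with all libraries. The fold changes of the 7 called genes kept their sign in each of 18 alternatives. *Rpusd4* was called in all 18, and *Mrpl45* in 15 of 18.

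**Figure D5:**
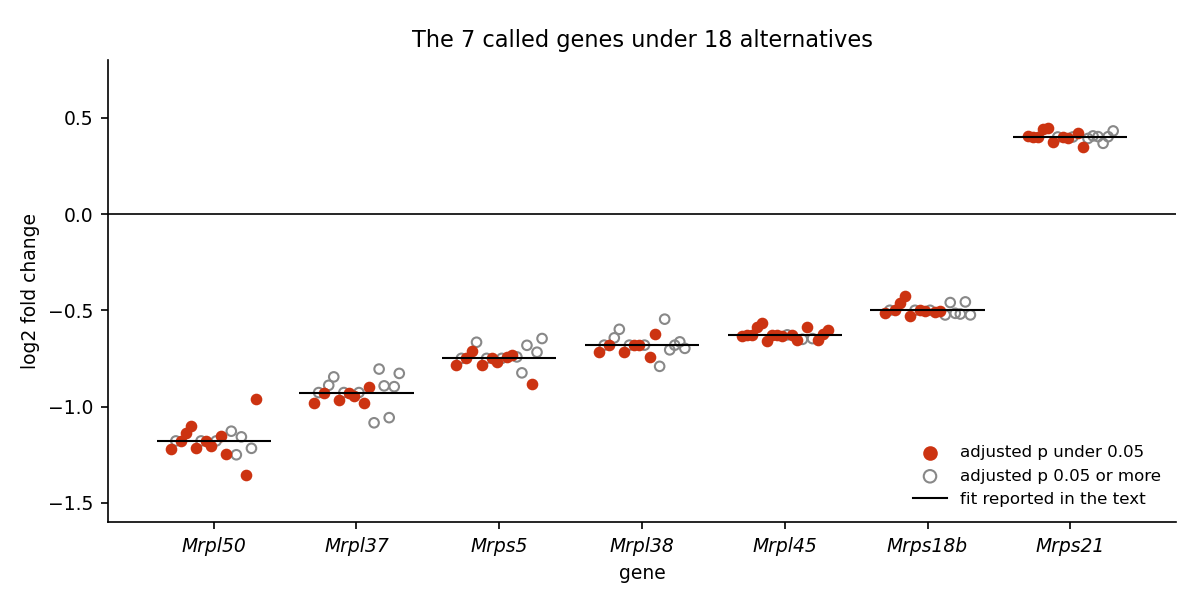
Log2 fold change of the 7 called genes under each of 18 alternatives (6 of them leave out a library), filled where the adjusted p was under 0.05 and open otherwise, with a line at the value reported in the text. All points of a gene lie on one side of 0, which the lack of overlap fixes for the 6 that leave out a library. Mrpl45 has the most filled points.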

How the data were processed

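The authors trimmed reads with Trim Galore (0.6.7), aligned them to mm10 with HISAT2 (2.2.1), removed ribosomal RNA reads with bedtools, assigned read pairs to GENCODE genes with featureCounts (2.0.1; strand ignored, pairs on several genes divided) and deposited TPM per gene and library; versions are from the submitters' processing notes. Libraries were grouped by their labels.

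The authors tested counts with edgeR. Because the deposited values are TPM, log2(TPM + 1) was fitted here with limma (3.58.1, R 4.3.3) with a variance trend, over 17353 genes that reached 1 TPM in 3 or more of the 6 libraries. Tests were two-sided, and genes were called at a Benjamini-Hochberg adjusted p under 0.05. P-values measure the spread between 3 libraries per group, which the labels do not tie to separate fertilizations. The fit was tested on simulated data. Coordinates and exon lengths were those of GENCODE vM21 (GRCm38; 54312 of 55364 identifiers, 98.1%), whereas the authors used vM25. Read pairs came from TPM and exon length. Promoters were from RefSeq (GRCm38.p6). Python 3.11.15 with pandas 2.3.3 was used for tables.

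Genes were named by rule: all called genes, the 5 with the largest fold change in each direction, the 5 highest and 3 lowest in level, all with the YY1 consensus, the *Mrps18* paralogs and called genes of the related lists. The genes and lists were chosen with earlier results of these data known. Alternatives were other filters, pseudocounts, scalings, variance models, a replicate block, limma-voom on read pairs, a GC and length correction, and leaving out each library.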

Additional observations from a re-analysis of the deposited data

How the results depend on the processing

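Each of the 78 genes had at least 47 read pairs in every library, and each group had 3 libraries. Over all 78 genes, limma-voom called 10 lower (12.8%, beside 7.65% of all genes) and 3 higher (beside 801 of all 16931 genes). The 4 *Mrpl* genes called lower became 1 without a filter on low values and without the variance trend. They became 2 with median-ratio scaling and with quantile normalization, and 6 with limma-voom. They became 7 with a mean TPM of at least 5, with genes of at least 200 nt and with the GC content and length correction. Leaving out a library gave 0 to 3. *Mrpl* genes called higher became 1 with limma-voom. The 2 *Mrps* genes called lower became 0 without the filter and without the trend, 1 with quantile normalization and without genes that share exonic sequence (an alternative chosen after seeing the data), and 4 with limma-voom, and 0 to 1 without a library. With genes of at least 200 nt, *Mrps2* was called lower as well. The 1 *Mrps* gene called higher became 2 with a mean TPM of at least 5 and with limma-voom, 0 without the trend, and 0 without any library. The 2 related genes called lower became 4 with a mean TPM of at least 5 and with genes of at least 200 nt, 5 with limma-voom, and 1 to 2 without a library. The *Mrpl* median of -0.17 was -0.088 with quantile normalization and -0.23 to -0.14 without a library. The *Mrps* median of -0.05 was 0.025 with quantile normalization, -0.11 without shared exonic sequence and -0.12 to -0.011 without a library. Uncalled genes near 0 changed sign. *Mrpl11* was at 0.033 with median-ratio scaling and 0.088 with quantile normalization, and *Mrps35* at 0.017 with quantile normalization. Without a library, *Mrpl11* ranged from -0.082 to 0.13, *Mrpl13* from -0.0019 to 0.11, *Mrpl33* from -0.20 to 0.0021, *Mrpl36* from -0.014 to 0.25, *Mrps12* from -0.024 to 0.15 and *Mrps7* from -0.032 to 0.19. Over all genes, calls rose from 728 lower and 333 higher to 1296 and 801 with limma-voom, and the split became 548 and 388 with quantile normalization. The causes were not tested.

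Replicate numbers did not pair the libraries, since same-numbered libraries had correlations of -0.004, 0.03 and 0.07 between their deviations from the group means. With a replicate block, 0 *Mrpl* genes and 0 *Mrps* genes were called lower, 0 *Mrps* genes higher, 1 related gene lower, and 218 lower and 69 higher genes overall.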

Other observations

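Processed pseudogenes of the same families could draw reads from their parent genes. Of 6 that are listed, 3 passed the filter, and none was called. *Mrpl48-ps* had 8.61, 12.2 and 8.11 TPM in control KD and 18.3, 16.0 and 9.20 TPM in *Yy1* KD (log2 fold change 0.51, adjusted p = 0.313). *Mrpl23-ps1* and *Mrpl27-ps* had log2 fold changes of -0.32 and 0.77 (adjusted p = 0.706 and 0.444). The groups overlapped for each of the 3. Their part in the levels of *Mrpl48*, *Mrpl23* and *Mrpl27* was not tested.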
